A study of Mus musculus with 4 samples.

Results

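Muscle miRNAs are the small RNAs of the miR-1, miR-133 and miR-206 families, chosen here by name as 7 mature miRNAs of the 1900 in the deposited table: mmu-miR-1a-3p, mmu-miR-133a-5p, mmu-miR-133a-3p, mmu-miR-133b-5p, mmu-miR-133b-3p, mmu-miR-206-5p and mmu-miR-206-3p, where mmu stands for mouse and 5p and 3p for the arms of a hairpin. They were measured in 4 small RNA libraries made after RNA immunoprecipitation (RIP) for Argonaute2 (AGO2), the protein that carries mature miRNAs to their target RNAs, from the olfactory bulb of C57BL/6 mice. The GFP-AGO2 group (2 libraries) came from mice given the viral vector LV.PGK.GFP-AGO2, whose name joins AGO2 to green fluorescent protein. The Control group (2 libraries) came from sham-injected mice with no vector. Bulbs of both groups were dissected 8 weeks after the injection. The labels name whole bulb tissue, while the series text speaks of newborn neurons of the bulb. The sources used here do not give the age and sex of the mice, the antibody or any input library. A Control value may thus stand for endogenous AGO2 complexes or for background of the procedure. The GFP-AGO2 libraries held 2809758 and 1858354 miRNA counts and the Control libraries 1006861 and 673916. No label ties each library to its own animal, so p-values reflect only how far these libraries differ, possibly for technical reasons.

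In striated muscle these families work as co-transcribed pairs: each miR-1 or miR-206 hairpin lies next to a miR-133 hairpin. MiR-1 and miR-206 share a seed, the stretch near the 5′ end that pairs with targets, and are known for promoting muscle differentiation. MiR-133 has another seed and is known for its part in myoblast proliferation. MiR-206 is characteristic of skeletal muscle, miR-1 and miR-133a of both skeletal and heart muscle. MiR-133b has also been described in midbrain dopaminergic neurons.

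The mature sequences show how these families differ, with the seed (bases 2 to 8) in capitals. RefSeq (build GRCm38.p6) gave sequences for 4 of the 7 names, all from chromosome 1, at the same positions as in the count table. The 5p arm of the related hairpin miR-1a-1 on chromosome 2 is shown beside miR-206-5p.
miR-206-3p: uGGAAUGUaaggaagugugugg
miR-206-5p: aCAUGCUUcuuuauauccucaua
miR-1a-1-5p: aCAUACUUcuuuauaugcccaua
miR-133b-3p: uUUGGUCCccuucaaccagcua
miR-133b-5p: gCUGGUCAaacggaaccaaguc
The 5p arms of miR-206 and miR-1a-1 carry the same base at 20 of 23 positions, whereas miR-206-3p and miR-133b-3p do so at 4 of 22. Among 1679 mature names with a RefSeq sequence, the miR-206-3p seed also occurs in miR-6349 and miR-6382, which had no count in any of the 4 libraries, and the miR-133b-3p seed occurs in no other of these names. MiR-1a-3p and miR-133a-3p were not among the names searched.

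On chromosome 1 (mm10, plus strand) miR-206-3p lies at 20679055 to 20679076 and miR-133b-3p at 20682834 to 20682855, so their starts are 3779 bases apart. In the GENCODE M21 annotation both lie in exons of the long non-coding RNA gene Gm28653, and miR-206-5p (20679017 to 20679039) lies in an intron of it. MiR-1a-3p and both miR-133a arms have 2 positions each, on chromosome 2 and on chromosome 18. On chromosome 2 (plus strand) miR-1a-3p lies at 180389096 to 180389117 and miR-133a-3p at 180398437 to 180398458, within no gene model other than their own hairpins. The counts of these names cannot be split between the positions. The chromosome 18 position of miR-1a-3p also overlaps miR-1b-5p on the opposite strand. The counting command names neither a strand nor an option for overlapping names, and with such settings a read over both names is given to neither. The level of miR-1a-3p may therefore be too low by an amount that was not measured, while no position of miR-133a, miR-133b or miR-206 overlaps another name.

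The muscle miRNAs made up a very small part of the miRNA counts. Only 2 of the 7 had enough counts to be tested for a change, and 1 of these was called lower. Over all 457 tested miRNAs, 17.1% were called lower. MiR-206-3p was 4.47-fold lower in GFP-AGO2 than in Control, and miR-1a-3p had a 2.70-fold lower level that did not pass the test. The miR-133 arms were almost missing from all 4 libraries. Summed over the 7 names, GFP-AGO2 replicates 1 and 3 had 95 and 131 counts, against 173 and 76 in Control replicates 1 and 3. As shares of all miRNA counts these were 0.00338% (95% exact interval 0.00274 to 0.00413) and 0.00705% (0.00589 to 0.00837) in GFP-AGO2, against 0.0172% (0.0147 to 0.0199) and 0.0113% (0.00889 to 0.0141) in Control. Both GFP-AGO2 shares lay below both Control shares, an order that 35.2% of all tested miRNAs show singly. Nearly all of these counts were of miR-1a-3p and miR-206-3p, so the sum does not describe the 7 names as a set. All such intervals hold counting error alone and no spread between libraries. PCR duplicates could not be removed, so the intervals may be too narrow even for counting error. Only the GFP-AGO2 mice were given the vector, so the RIP may also capture differently between the groups. Fewer cells of a type, less RNA per cell and such a difference in capture cannot be told apart.

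MiR-206-3p, the arm of miR-206 that pairs with targets, had 31 and 24 counts in GFP-AGO2 replicates 1 and 3, against 51 and 28 in Control replicates 1 and 3. As CPM (counts scaled to a common library size, with TMM factors that correct for composition) these were 10.4 and 11.8 CPM in GFP-AGO2, against 53.0 and 46.2 CPM in Control. Both GFP-AGO2 libraries lay below both Control libraries, as for 35.2% of all tested miRNAs, and the libraries of each group lay close together. The mean level was 11.1 ± 0.95 CPM in GFP-AGO2 and 49.6 ± 4.80 CPM in Control (SD, n = 2 each). Its log2 fold change, GFP-AGO2 over Control, was -2.16 (SE 0.35, 95% interval -3.06 to -1.26), with an adjusted p = 0.00863 by edgeR's quasi-likelihood test with Benjamini-Hochberg adjustment over all 457 miRNAs tested. It was called lower under each of the 12 alternative processing choices that could be run for it, with log2 fold changes of -2.26 to -1.92 and adjusted p-values of 0.000699 to 0.0387. The largest of these p-values came from the fit without Control replicate 1 (-1.96).

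MiR-1a-3p, the most abundant of the 7, had 62 and 105 counts in GFP-AGO2 replicates 1 and 3, against 112 and 46 in Control replicates 1 and 3. The CPM values were 20.9 and 51.5 in GFP-AGO2, against 116 and 75.9 in Control. These values did not overlap between the groups, an order shared by 35.2% of all tested miRNAs. The 95% counting intervals of GFP-AGO2 replicate 3 (42.1 to 62.4 CPM) and Control replicate 3 (55.6 to 101 CPM) did overlap. Within each group the libraries lay well apart, GFP-AGO2 replicate 3 being the nearer to Control. The mean was 36.2 ± 21.7 CPM in GFP-AGO2 and 96.2 ± 28.6 CPM in Control (SD, n = 2 each). The log2 fold change was -1.43 (SE 0.51, 95% interval -2.72 to -0.15), with an unadjusted p = 0.0352 and an adjusted p = 0.0841 by edgeR. The call depended on the processing. With all 4 libraries it was called lower by DESeq2 (-1.44, adjusted p = 0.0344), with no filter (-1.20, adjusted p = 0.00801) and with a replicate block (-1.53, adjusted p = 0.0430). Single libraries also decided it. Without GFP-AGO2 replicate 3 it was -2.20 and called (adjusted p = 3.09e-06), and without Control replicate 3 it was -1.73 and called (adjusted p = 0.0254). Without GFP-AGO2 replicate 1 it was -0.89 and without Control replicate 1 it was -0.99, neither called (adjusted p = 0.0661 and 0.258).

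**Figure D1:**
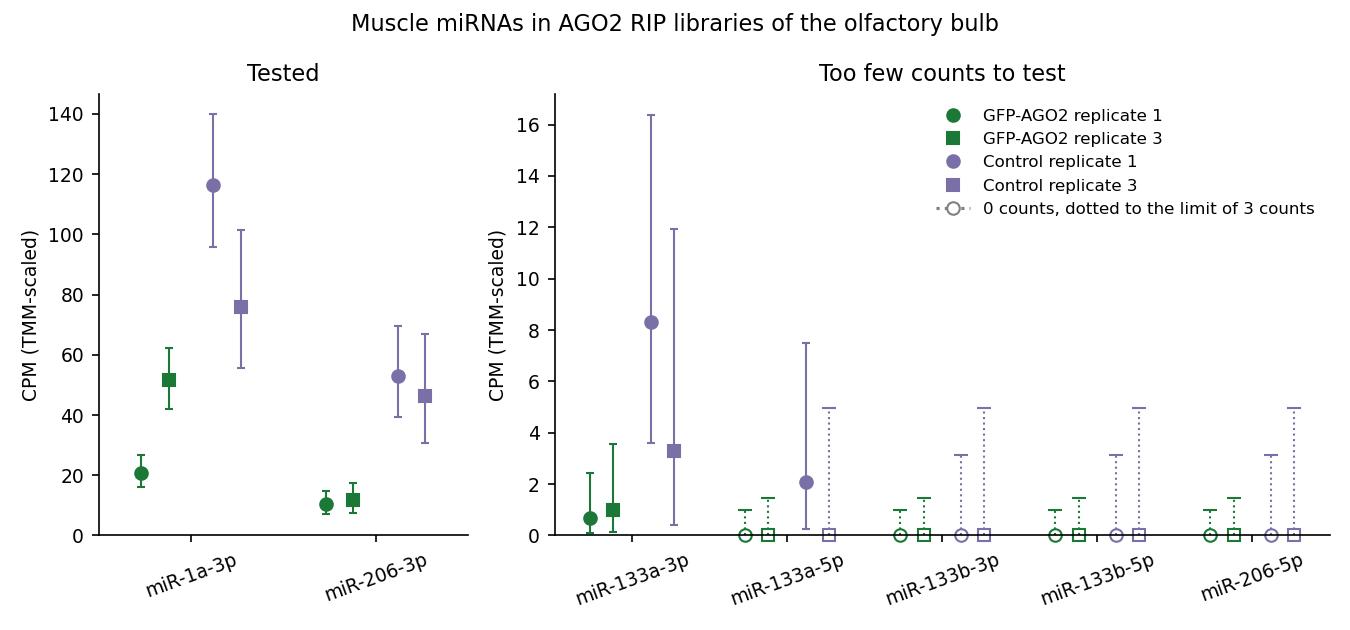
CPM (TMM-scaled, linear axes) of the 7 muscle miRNAs in each library, with GFP-AGO2 in green left of Control in purple; bars are exact 95% Poisson intervals of the count, and open symbols are libraries with 0 counts, dotted up to the level that 3 counts would give. MiR-206-3p sits at 10.4 and 11.8 CPM in GFP-AGO2 and at 53.0 and 46.2 CPM in Control, miR-1a-3p is more spread, and the miR-133 arms lie near or at 0.

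MiR-133a-3p, the target-pairing arm that muscle makes from the same precursor transcripts as miR-1a, had 2 counts in each GFP-AGO2 library, against 8 and 2 in Control replicates 1 and 3. Its levels were 0.673 and 0.981 CPM in GFP-AGO2, against 8.32 and 3.30 CPM in Control. Both GFP-AGO2 values were below both Control values, as for 35.2% of all tested miRNAs, but on 14 counts in all, and the name was too low to be tested. With no filter it could be fitted and was not called (log2 fold change -2.53, edgeR adjusted p = 0.313). Pooled over the libraries of a group, the ratio of GFP-AGO2 to Control was 0.125, with a counting interval of 0.0287 to 0.434 that holds no spread between libraries. Of the 10 Control counts in this ratio, 8 came from replicate 1. MiR-133a-5p, the other arm, had no count in GFP-AGO2, against 2 counts in Control replicate 1 and none in Control replicate 3.

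MiR-133b-3p, miR-133b-5p and miR-206-5p had no count in any of the 4 libraries. A count of 0 allows a level of up to 1.01 and 1.47 CPM in GFP-AGO2 replicates 1 and 3, and up to 3.12 and 4.95 CPM in Control replicates 1 and 3, taking 3 counts as the limit. MiR-133b-3p and miR-133a-3p are near-identical in sequence, so the split of reads between these names is uncertain. The zeros of miR-133b hold for this depth and this counting only. MiR-206-5p is the passenger arm of its hairpin.

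Set against each other within a library, which no scaling can alter, the members were uneven. MiR-1a-3p made up 65.3% and 80.2% of the counts of the 7 names in GFP-AGO2 replicates 1 and 3, against 64.7% and 60.5% in Control replicates 1 and 3. MiR-206-3p made up 32.6% and 18.3% in GFP-AGO2, against 29.5% and 36.8% in Control. For every 100 counts of miR-1a-3p there were 50 (95% exact interval 31.4 to 78.2) and 22.9 (14.0 to 35.9) of miR-206-3p in GFP-AGO2, against 45.5 (32.0 to 64.0) and 60.9 (36.6 to 99.5) in Control. The groups overlapped in this ratio, GFP-AGO2 replicate 3 being the lowest. For every 100 counts of miR-1a-3p there were 3.23 and 1.91 of miR-133a-3p in GFP-AGO2, against 7.14 and 4.35 in Control, with counting intervals from 0.228 to 16.6 over the 4 libraries, which overlap. Reads lost from miR-1a-3p at its overlapping position would make the true ratios smaller still.

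Among all names with a count, 1106 in number, miR-1a-3p ranked 226 by mean CPM and miR-206-3p ranked 286. Within single libraries miR-206-3p ranked 369 and 365 in GFP-AGO2 replicates 1 and 3, against 242 and 247 in Control replicates 1 and 3. MiR-133a-3p ranked 543 by mean CPM.

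Of the 7 names, 2 had enough counts to be tested, and 1 of these was called lower and none higher at an adjusted p under 0.05. Over all 457 tested miRNAs, 78 were called lower (17.1%) and 79 higher (17.3%), 34.4% in either direction. Both GFP-AGO2 libraries lay below both Control libraries for both tested names, as they did for 35.2% of all tested miRNAs. The median log2 fold change of the 2 tested names was -1.80, against -0.01 over all tested miRNAs. Of the tested miRNAs, 51 had a lower log2 fold change than miR-206-3p and 70 a lower one than miR-1a-3p. With so few names tested, these values describe single miRNAs and not a family.

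**Figure D2:**
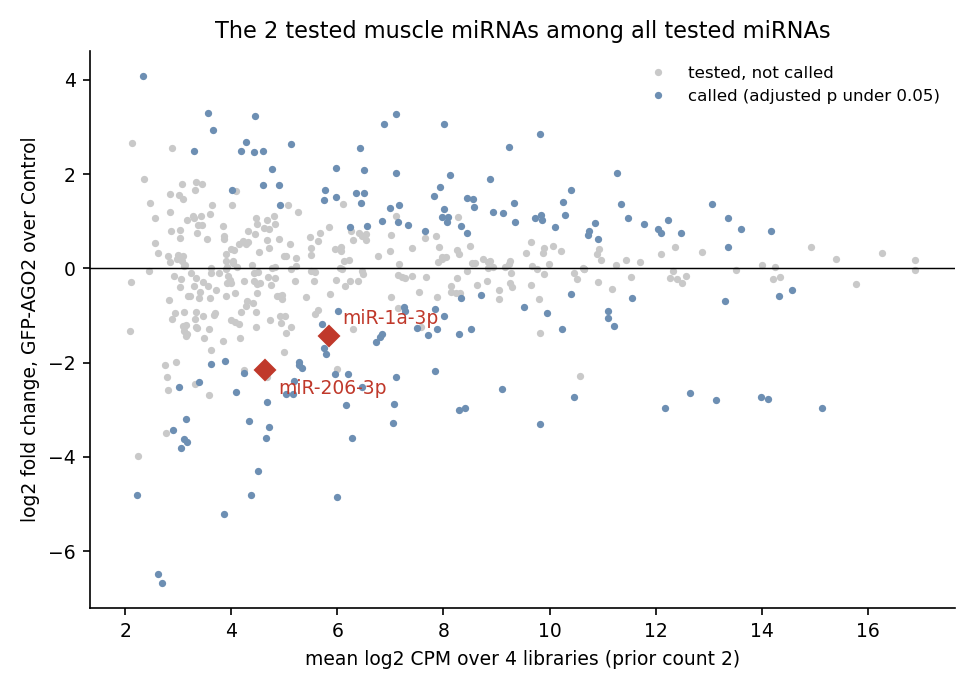
Log2 fold change of GFP-AGO2 over Control against mean log2 CPM (prior count 2) for the 457 tested miRNAs, with called ones in blue, the others in grey and the tested muscle miRNAs as red diamonds. MiR-206-3p lies at -2.16 (mean log2 CPM 4.64) and miR-1a-3p at -1.43 (mean log2 CPM 5.83), with 51 and 70 miRNAs below them.

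The other muscle miRNAs gave a similar picture of scarcity. The list held 14 names, of which 10 are in the table, 2 had any count and none had enough to be tested. MiR-499-5p, from an intron of the myosin gene Myh7b, had 7 and 0 counts in GFP-AGO2 replicates 1 and 3, against 3 and 0 in Control replicates 1 and 3. MiR-208a-3p, from an intron of the heart myosin gene Myh6, had 2 counts in GFP-AGO2 replicate 3 and none in the other libraries. MiR-208b of the slow myosin gene Myh7 had no count on either arm. The 5p arms of miR-1a and both arms of miR-1b were listed at 0. For miR-1a-2-5p, miR-1b-5p and miR-1b-3p, which overlap another name, a 0 cannot be read as absence. The table names miR-486 arms rather than the miR-486a and miR-486b of the list. They overlap miR-3107 and were likewise listed at 0.

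The miRNA nearest to miR-1a-3p in its pattern over the 4 libraries was miR-34c-5p, and the next was miR-148a-3p. Nearness was the Euclidean distance between log2 CPM values centred on each miRNA's own mean, over 274 other tested miRNAs with a mean of at least 50 counts. MiR-34c-5p, at a distance of 0.148, had 28.9 and 77.5 CPM in GFP-AGO2 replicates 1 and 3, against 157 and 99.0 CPM in Control replicates 1 and 3. MiR-148a-3p, at 0.193, had 317 and 884 CPM in GFP-AGO2, against 1804 and 1304 CPM in Control. Like miR-1a-3p, both were lowest in GFP-AGO2 replicate 1 and highest in Control replicate 1. MiR-199a-3p, miR-378a-3p and miR-744-5p followed at 0.569, 0.653 and 0.670. MiR-206-3p stood at 1.00, with 22 of the 274 nearer to miR-1a-3p than it was, against a median distance of 1.94 over the 274.

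Lists of marker miRNAs for several other cell types also had lower summed levels in the GFP-AGO2 libraries. Over all 457 tested miRNAs, 17.1% were called lower, and 35.2% had both GFP-AGO2 libraries below both Control libraries. For smooth muscle all 4 names had counts, and their summed level was 276 and 1353 CPM in GFP-AGO2 replicates 1 and 3, against 4527 and 3457 CPM in Control replicates 1 and 3. Of 3 tested, 1 was called lower, miR-145a-3p, while the most abundant, miR-143-3p, had a log2 fold change of -2.29 (edgeR adjusted p = 0.0637). MiR-143-3p, which was thus not called, carried most of this sum, with 266.5 and 1325 CPM in GFP-AGO2, against 4438 and 3350 CPM in Control. Of 5 red blood cell markers, only 3 are in the count table, all with counts. They summed to 0.337 and 4.42 CPM in GFP-AGO2, against 31.2 and 39.6 CPM in Control, with miR-451a, the 1 name tested, called lower. Immune markers, 5 of 6 with counts, summed to 73.0 and 208 CPM in GFP-AGO2, against 649 and 584 CPM in Control, and 2 of 3 tested were called lower, miR-150-5p and the most abundant, miR-146a-5p (log2 fold change -2.17, edgeR adjusted p = 0.0281). MiR-146a-5p carried most of this sum, with 57.2 and 174 CPM in GFP-AGO2, against 556 and 479 CPM in Control. The other tested name, miR-155-5p, was not called (log2 fold change -0.09, edgeR adjusted p = 0.947). Its levels overlapped between the groups, with 4.7 and 12.3 CPM in GFP-AGO2, against 9.4 and 8.3 CPM in Control. MiR-142-3p of that list and both endothelial names, miR-126a-3p and miR-126a-5p, overlap another name and were listed at 0.

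The list labelled epithelium, all 10 names with counts, summed to 24280 and 45720 CPM in GFP-AGO2, against 245600 and 255800 CPM in Control, and 8 of 9 tested were called lower, the most abundant being miR-183-5p (log2 fold change -2.97, edgeR adjusted p = 0.00353). These 8 all belong to the miR-200 family or to the miR-183, miR-96 and miR-182 cluster, which sensory cells also express, and they carry the sum. Of the other names of the list, miR-203-3p was not called (-0.84, edgeR adjusted p = 0.0945). MiR-205-5p, with 6 and 10 counts in GFP-AGO2, against 7 and 12 in Control, was not tested. Scaled to library size, miR-205-5p had 2.02 and 4.91 CPM in GFP-AGO2, against 7.28 and 19.8 CPM in Control, lower in both GFP-AGO2 libraries but on few counts. Whether epithelium changed as a cell type was not tested. The striated muscle markers themselves, 5 of 7 with counts and with miR-133b-3p and miR-208b-3p at 0, summed to 34.3 and 65.3 CPM in GFP-AGO2, against 181 and 126 CPM in Control. In these 5 lists with counts, GFP-AGO2 replicate 1 was lower than GFP-AGO2 replicate 3. Neuronal markers of the bulb, all 7 with counts, summed to 17770 and 15580 CPM in GFP-AGO2, against 13690 and 16240 CPM in Control, and overlapped between the groups. All 7 were detected in every library, but their sum was below that of the list labelled epithelium in each, so the sums by themselves do not identify the tissue. Of the 7, miR-9-5p and miR-9-3p were called higher in GFP-AGO2 and miR-138-5p was called lower. The part of these other cell types in the muscle miRNA values was not tested.

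**Figure D3:**
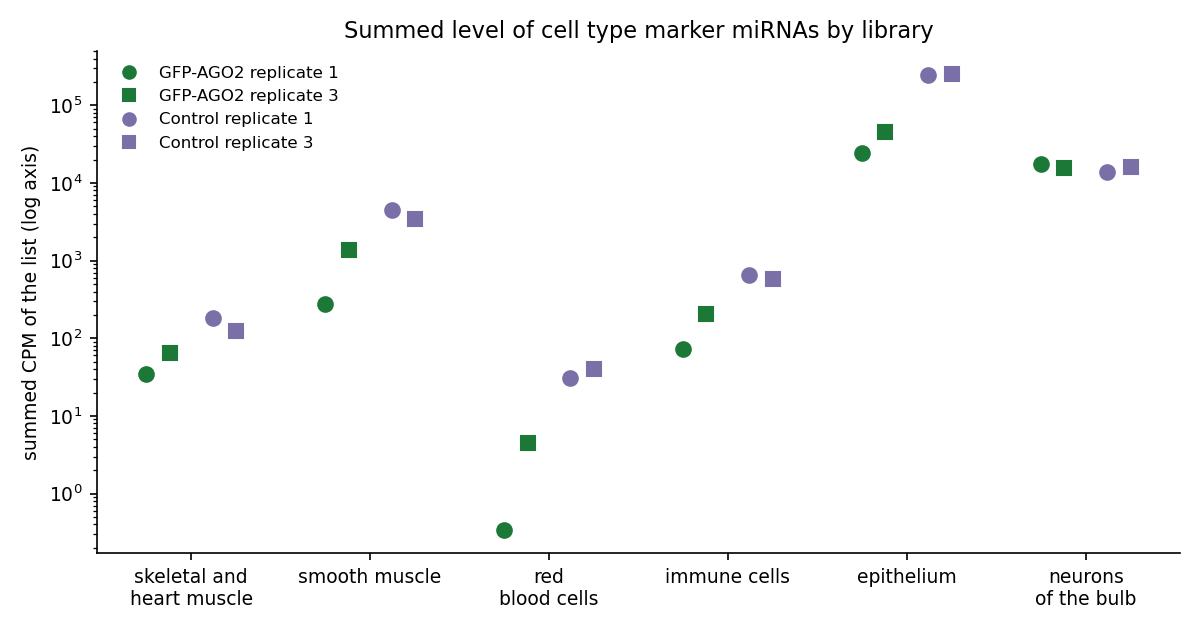
Summed CPM (log axis) of each list of cell type markers in each library, with GFP-AGO2 in green left of Control in purple; the endothelial list is not drawn because its 2 names were listed at 0. In the 5 lists other than the neuronal one both GFP-AGO2 libraries lie below both Control libraries, an order that 35.2% of all tested miRNAs share. Striated muscle lies at 34.3 and 65.3 CPM in GFP-AGO2 against 181 and 126 CPM in Control, while the neuronal list overlaps at 13690 to 17770 CPM.

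Ratios within a library set the muscle miRNAs against single markers without any scaling. For every 100 counts of the neuronal miR-124-3p, which had a log2 fold change of -0.15 (edgeR adjusted p = 0.555), there were 0.165 (95% exact interval 0.112 to 0.235) and 0.223 (0.143 to 0.332) of miR-206-3p in GFP-AGO2, against 0.944 (0.702 to 1.24) and 0.635 (0.421 to 0.919) in Control. These intervals, which hold counting error alone, do not overlap between groups. With miR-124-3p nearly unchanged, this ratio restates the fold change of miR-206-3p and adds no separate result. MiR-1a-3p had 0.331 and 0.976 counts for every 100 of miR-124-3p in GFP-AGO2, against 2.07 and 1.04 in Control. GFP-AGO2 replicate 3 and Control replicate 3 overlapped in their intervals here (0.798 to 1.18 and 0.763 to 1.39).

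For every 100 counts of the smooth muscle miR-143-3p there were 7.83 (5.95 to 10.2) and 3.89 (3.17 to 4.73) of miR-1a-3p in GFP-AGO2, against 2.62 (2.16 to 3.17) and 2.27 (1.65 to 3.04) in Control. By this measure both GFP-AGO2 libraries were above both Control libraries. MiR-206-3p had 3.91 and 0.889 for every 100 of miR-143-3p in GFP-AGO2, against 1.20 and 1.38 in Control, and the groups overlapped.

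**Figure D4:**
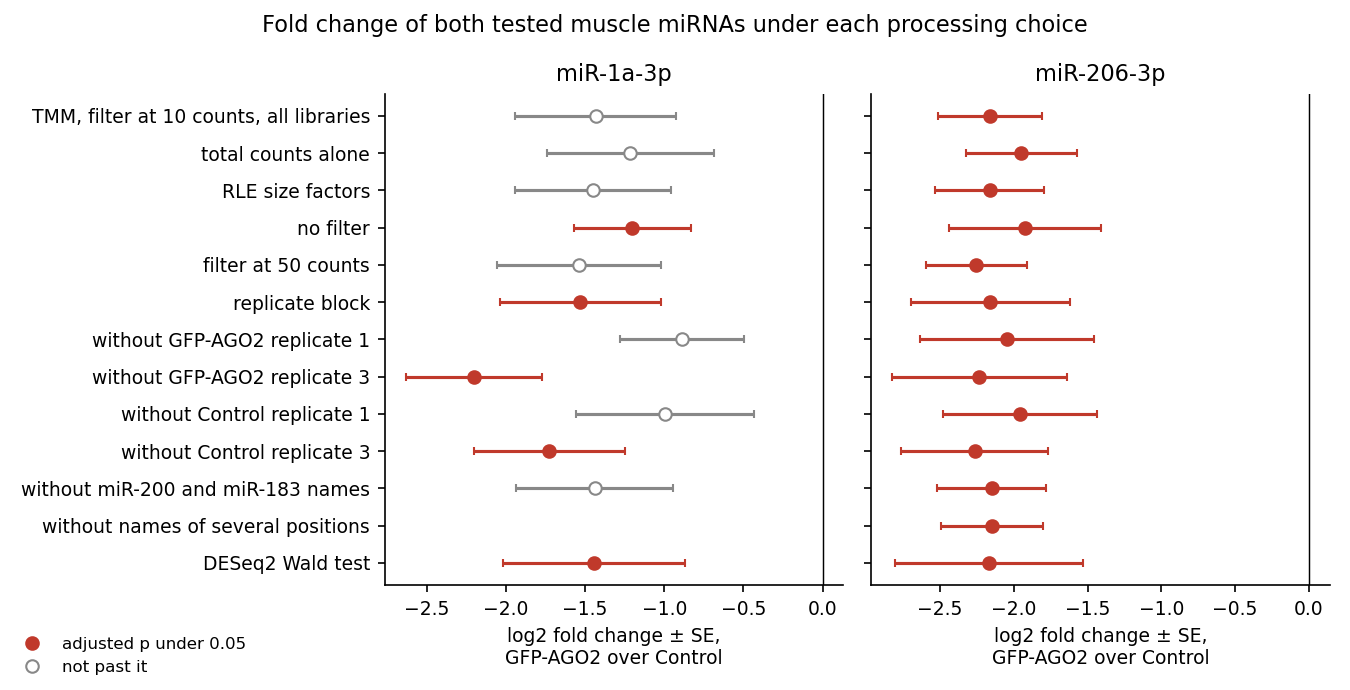
Log2 fold change of GFP-AGO2 over Control with its SE for miR-1a-3p (left) and miR-206-3p (right) under each processing choice, red where the adjusted p was under 0.05; miR-1a-3p has several positions and so no value without such names. MiR-206-3p stays between -2.26 and -1.92 and is called each time, whereas miR-1a-3p ranges from -2.20 to -0.89 and is called under 5 of 11 alternatives.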

How the data were processed

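Per the file headers, the deposited whole-number counts per mature miRNA name were made by the authors with featureCounts 1.4.6-p1 on primary alignments over a miRBase annotation for mm10, without strand or overlap options. The submitters' processing notes name cutadapt and STAR, with no version. Columns were tied to samples by title.

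Changes were tested with edgeR 4.0.16 (R 4.3.3), the quasi-likelihood F test with TMM factors and filterByExpr at a minimum count of 10, two-sided, with Benjamini-Hochberg adjustment over 457 miRNAs; DESeq2 1.42.0 was an alternative. An SE is the log2 fold change over the root of F. CPM is the count over the TMM-scaled library size. Intervals of shares and ratios are exact Clopper-Pearson (scipy 1.17.1). The fit was run on simulated data with a single fixed spread between libraries. This does not show how often calls are wrong at the spread of these libraries. Replicate libraries differed by more than counting noise (chi-square 47711 on 475 degrees of freedom in GFP-AGO2, 4564 on 383 in Control).

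The 7 names and all marker lists were chosen with earlier results of these data known. Named are these 7, other muscle names with counts, the 5 profiles nearest to the most abundant member and, of each marker list, the most abundant name and those at 0. MiR-145a-3p, miR-150-5p, miR-155-5p, miR-203-3p, miR-205-5p, the miR-9 arms and miR-138-5p were added after the values were seen. So were the miR-143-3p and miR-124-3p ratios and the muscle names listed at 0.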

Additional observations from a re-analysis of the deposited data

How the results depend on the processing

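MiR-206-3p kept its direction and its call under all 12 alternatives run. MiR-1a-3p kept its direction under 11 and was called lower with no filter (-1.20), with DESeq2 (-1.44, adjusted p = 0.0344) and in the fit with a replicate block (-1.53, adjusted p = 0.0430), so that 2 names were then called lower in each of these 3 settings, against 1. Leaving out single libraries gave miR-1a-3p -2.20 to -0.89, with 1 to 2 names called lower; the fits without a GFP-AGO2 library take their spread from the Control pair alone. The replicate numbers are not shown to pair the libraries: the replicate 1 minus replicate 3 differences of GFP-AGO2 and Control had a correlation of -0.0606 over miRNAs. With no filter miR-133a-3p could be fitted (-2.53, adjusted p = 0.313). Total counts alone moved the median of all miRNAs by 0.21 and no filter by 0.24; miR-206-3p was then -1.95 and -1.92. The mean share of the 7 names was 0.00522% in GFP-AGO2 and 0.0142% in Control. Without names of several positions it was 0.00120% in GFP-AGO2 and 0.00461% in Control, and as a share of counts that exclude the miR-200 family and miR-183 cluster it was 0.00545% in GFP-AGO2 and 0.0187% in Control; leaving out single libraries gave 0.00338% to 0.00705% in GFP-AGO2 and 0.0113% to 0.0172% in Control. Over all miRNAs, 61 to 118 were called higher and 59 to 99 lower under the alternatives. The 5 untested names had counts of 0 to 8 in a library, too few for a test; the deeper GFP-AGO2 libraries did not hold more of them than the Control libraries.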
